A study of Homo sapiens with 10 samples.

Results

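The genes described here handle zinc and iron. They are the zinc exporters of the SLC30A family (ZnT proteins), the importers of the SLC39A family (ZIP proteins), the metallothioneins, and the genes for iron uptake, iron export and iron sensing. They were chosen by symbol alone: every gene whose symbol begins with SLC30A or SLC39A, plus 18 genes listed by name, provided that a probe set of the array carried that 1 symbol and no other. This gave 30 genes, each with 1 probe set, of 14232 genes named in the same way. MT1A, MT1E, MT1F, MT1H, MT1M, MT2A, MTF1 and IREB2, which the rule also lists, had no probe set of their own among those annotated to a single symbol and were not analysed here.

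RNA came from SH-SY5Y, a human neuroblastoma cell line, and was measured on Affymetrix arrays. The cells had been stably transfected with wild-type SOD1 (5 arrays, from samples 2, 8, 11, 14 and 17) or with SOD1(G93A), a mutant form that causes familial amyotrophic lateral sclerosis (5 arrays, from samples 3, 9, 12, 15 and 18). Both lines were kept in G418, the drug that selects for the transfected DNA, and no untransfected cells were analysed here. The labels do not say whether each line is 1 clone or a pool, nor whether the samples of a group were grown as separate cultures. The p-values therefore cover the spread between these samples alone, part or all of which may be technical, and the mutation and other differences between the lines cannot be told apart.

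Zinc enters the cytosol through ZIP proteins and leaves it, for the outside or for vesicles and the Golgi, through ZnT proteins. Metallothioneins are small cysteine-rich proteins that hold zinc and copper, and the transcription factor MTF1 senses free zinc and switches on metallothionein genes and the exporter gene SLC30A1 by binding metal response elements in their promoters. Iron bound to transferrin (TF) is taken up by the transferrin receptor (TFRC), moves out of the endosome through SLC11A2, and leaves the cell through ferroportin (SLC40A1) with the help of the ferroxidases CP and HEPH, while the iron regulatory proteins ACO1 and IREB2 control TFRC and ferritin after transcription. SOD1 itself is an enzyme that holds copper and zinc.

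The promoters of 4 of these genes are shown, in each case the 250 bases before the most upstream RefSeq start in assembly GRCh38.p14, read in the direction of the gene. MT1X and SLC30A1 stand for the genes that respond to metal, and SLC39A8 and SLC30A3 are the 2 members that differed between the lines. Capitals mark matches to the core of the metal response element, searched as TGCGCNC and TGCACNC on both strands, with overlapping matches counted as 1.
MT1X (chr16:56682220-56682469, plus strand): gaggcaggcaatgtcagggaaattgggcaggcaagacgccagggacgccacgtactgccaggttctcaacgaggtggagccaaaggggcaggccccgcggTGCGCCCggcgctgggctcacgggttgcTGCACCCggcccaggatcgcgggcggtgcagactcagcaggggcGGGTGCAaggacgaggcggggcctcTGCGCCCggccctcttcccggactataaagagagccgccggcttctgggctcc
SLC30A1 (chr1:211579162-211579411, minus strand): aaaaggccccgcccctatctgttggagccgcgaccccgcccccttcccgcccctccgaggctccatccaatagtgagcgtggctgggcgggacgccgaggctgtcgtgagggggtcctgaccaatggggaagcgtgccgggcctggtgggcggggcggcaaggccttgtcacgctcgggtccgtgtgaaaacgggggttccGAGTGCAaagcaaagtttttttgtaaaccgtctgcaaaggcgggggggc
SLC39A8 (chr4:102345483-102345732, minus strand): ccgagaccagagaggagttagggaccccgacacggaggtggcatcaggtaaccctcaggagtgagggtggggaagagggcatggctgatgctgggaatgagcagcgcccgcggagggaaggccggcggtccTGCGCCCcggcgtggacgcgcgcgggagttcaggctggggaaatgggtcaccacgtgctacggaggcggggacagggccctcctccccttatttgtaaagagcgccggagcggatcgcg
SLC30A3 (chr2:27275347-27275596, minus strand): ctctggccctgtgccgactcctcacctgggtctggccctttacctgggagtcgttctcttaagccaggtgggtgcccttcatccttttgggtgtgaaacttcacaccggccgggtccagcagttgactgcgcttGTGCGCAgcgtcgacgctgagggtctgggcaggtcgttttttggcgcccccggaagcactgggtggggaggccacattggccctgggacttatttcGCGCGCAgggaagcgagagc

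The MT1X window held 4 matches, between 46 and 150 bases before the start, and 0.208% of all 35116 promoter windows of this length held as many. The SLC30A1 and SLC39A8 windows held 1 match each, and the SLC30A3 window 2. At least 1 match stood in 24.8% of all windows and in 11 of the 24 members with a window in the table, and at least 2 stood in 5.53% of all windows and in 5 of those 24. The count over all windows takes every start in the table, while each member has 1 window, at its most upstream start. These shares are therefore not on the same basis. A match is a description of the letters and not a binding site.

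The 10 arrays correlated highly with one another, and every correlation between groups lay below every one within a group. Arrays of 1 group correlated at 0.9903 to 0.9941 and arrays of different groups at 0.9861 to 0.9901. Array medians ran from 6.26 to 6.34 (log2 intensity). The lower quartile of the probe sets lay between 3.84 and 3.89, and a gene whose mean was below it in both groups is called dim here, because differences of dim probe sets are compressed. Of the noradrenergic neuroblastoma markers, 9 of 10 measured lay above the array medians in both groups, none was dim, and 2 were called higher (the calls are defined with the first results) and 3 lower. Of the stromal markers, 3 of 8 were called higher in the SOD1(G93A) line (COL3A1, DCN and FAP) and 5 were not called, and the list mean, which the 3 may carry, was 6.54 to 6.61 per array against 5.98 to 6.14 in the wild-type line. Glial markers had 1 of 5 called higher (S100B; list mean 4.15 to 4.35 against 4.08 to 4.16), and immune and endothelial markers had 0 of 8 called and list means of 3.84 to 3.99 in the wild-type and 3.92 to 3.96 in the SOD1(G93A) arrays. AQP4, PTPRC, CD3E and PECAM1 were dim, as was FAP. The part of these markers in the differences given next was not tested. Samples 17 and 18 lay farthest from their groups in earlier results of these data, and SOD1(G93A) sample 18 was the highest array of its group in 15 of the 30 members, against 29.1% of all named genes, so the values without it are given where they matter.

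Most genes of zinc and iron handling did not differ detectably between the lines. By limma, at a threshold of 0.05 on p-values adjusted by the Benjamini-Hochberg method across 22011 probe sets, 2 of the 30 members were called, both lower in the SOD1(G93A) line: SLC39A8, an importer of zinc, manganese and iron, and SLC30A3, the exporter that loads zinc into synaptic vesicles. None was called higher. The 2 called members are 6.67% of 30, where 9.60% of all named genes were called, 4.03% higher and 5.57% lower (7.46% of all probe sets in either direction). In the same 2 members the groups did not overlap, against 11.4% of all named genes (6.49% in the lower direction). At an unadjusted p under 0.05, 5 members were lower and 0 higher, where 11.6% of all named genes were lower and 10.1% higher. The median difference of the 30 members was −0.02 on the log2 scale, and that of all named genes was 0.00.

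The 95% interval of the difference lay within 1 log2 unit of 0, a 2-fold change, in all 30 members, and within 0.5 units in 25 of them. Moderated standard errors ran from 0.05 to 0.21. A total of 6 members was dim (SLC30A8, SLC39A2, MT1X, TF, CP and HEPH), and for these the interval on the compressed scale may understate the change in RNA.

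**Figure D1:**
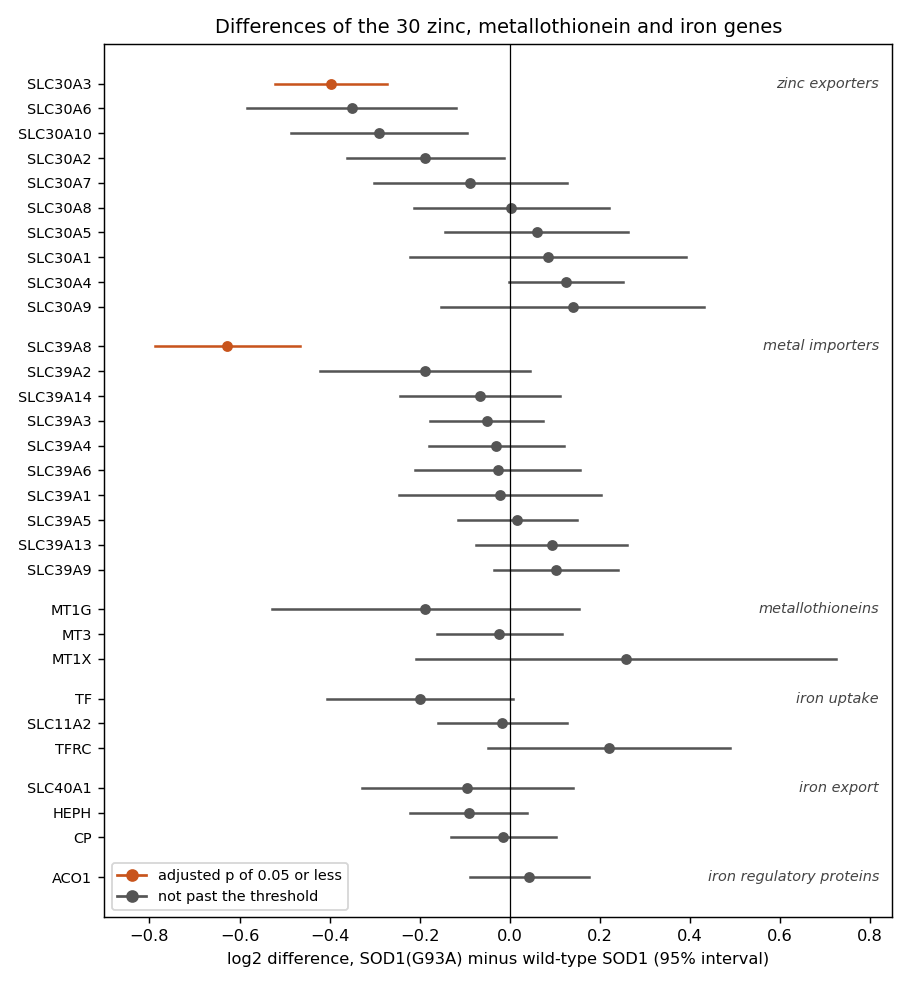
Log2 difference between the SOD1(G93A) and wild-type SOD1 lines (x axis, 5 arrays each) for each of the 30 members (y axis, grouped by role), with points for the estimate and lines for the 95% interval by limma. SLC39A8 at −0.63 and SLC30A3 at −0.40, in orange, are the 2 members past an adjusted p of 0.05.

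Among the importers, SLC39A8 was the 1 called. It encodes ZIP8, a plasma membrane and lysosomal carrier of zinc and manganese that also takes up iron. Its log2 intensity in the wild-type arrays was 7.44, 7.35, 7.62, 7.41 and 7.53 (in the order of samples 2, 8, 11, 14 and 17, kept below). In the SOD1(G93A) arrays it was 6.88, 6.71, 6.84, 6.76 and 7.01 (in the order of samples 3, 9, 12, 15 and 18, kept below). Every SOD1(G93A) array lay below every wild-type array. The means were 7.47 ± 0.11 and 6.84 ± 0.11 (SD, n = 5 each), a difference of −0.63 (SE 0.07, 95% interval −0.79 to −0.47; adjusted p by limma 0.000298), or 64.8% of the wild-type level. Leaving out any 1 array moved the difference between −0.67 and −0.59 and kept the call in all 10 omissions. The call also stood without samples 17 and 18 together. Of the 10 named genes nearest to it in gene order, 5 on each side, none was called and their median difference was 0.00.

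The other 9 importers were not called, and their differences ran from −0.19 to 0.10. SLC39A14, which encodes ZIP14 and is the closest relative of SLC39A8 in the metals it carries, differed by −0.07 (SE 0.08, 95% interval −0.24 to 0.11; adjusted p by limma 0.754). Whether its difference departs from that of SLC39A8 was not tested. SLC39A6, which encodes the plasma membrane importer ZIP6, read 9.57, 9.55, 9.79, 9.58 and 9.54 in the wild-type and 9.48, 9.53, 9.44, 9.63 and 9.82 in the SOD1(G93A) arrays. The groups overlapped, with wild-type sample 11 and SOD1(G93A) sample 18 the highest of their groups. SLC39A1, which encodes the plasma membrane importer ZIP1, read 9.07, 9.11, 9.54, 9.30 and 9.19 and 9.16, 9.06, 9.32, 9.14 and 9.42. Those groups overlapped as well, and the intervals of the differences were −0.21 to 0.16 for SLC39A6 and −0.25 to 0.20 for SLC39A1.

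SLC39A2, an importer best known from skin, was dim. It read 2.79, 2.77, 2.71, 3.19 and 2.54 in the wild-type arrays and 2.61, 2.53, 2.55, 2.71 and 2.65 in the SOD1(G93A) arrays. Wild-type sample 14 was the highest, and the difference was −0.19 (SE 0.11; adjusted p by limma 0.395), or −0.09 without that array. SLC39A9 (0.10) and SLC39A13 (0.09), importers of the secretory pathway, and SLC39A5 (0.02) had values above 0 without passing the threshold. SLC39A3 (−0.05) and SLC39A4 (−0.03), the intestinal zinc importer, had values below 0 without passing it.

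Among the 10 exporters, SLC30A3 was called lower and the other 9 were not called. SLC30A3 encodes ZnT3, which fills synaptic vesicles with zinc. Its log2 intensity was 5.72, 5.84, 5.74, 5.83 and 5.71 in the wild-type arrays and 5.29, 5.49, 5.34, 5.38 and 5.35 in the SOD1(G93A) arrays. All 5 SOD1(G93A) arrays were below the lowest wild-type array. The means were 5.77 ± 0.06 and 5.37 ± 0.08 (SD, n = 5 each), and the difference was −0.40 (SE 0.06, 95% interval −0.52 to −0.27; adjusted p by limma 0.00119), or 76% of the wild-type level. The call stood in all 10 omissions of 1 array (−0.43 to −0.38). Neither SLC30A3 nor SLC39A8 reached the 2-fold change that the labels add to the threshold, which 1.18% of all named genes did.

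SLC30A6 encodes ZnT6, a Golgi protein that pairs with ZnT5 to deliver zinc to secreted enzymes. It read 8.69, 8.60, 8.89, 8.95 and 8.65 in the wild-type and 8.38, 8.32, 8.27, 8.30 and 8.75 in the SOD1(G93A) arrays. In the SOD1(G93A) group 4 arrays lay below every wild-type array, and sample 18 lay within the wild-type range. The difference was −0.35 (SE 0.10, 95% interval −0.58 to −0.12), and it did not pass the threshold (adjusted p by limma 0.0762). Without SOD1(G93A) sample 18 it was −0.44 and was called (adjusted p by limma 0.0100), and without samples 17 and 18 together it was −0.46 (adjusted p by limma 0.0154). In the other 9 omissions of 1 array SLC30A6 was not called, with adjusted p by limma up to 0.166. Its partner SLC30A5 differed by 0.06 (SE 0.09; adjusted p by limma 0.82), with wild-type sample 11 and SOD1(G93A) sample 18 apart from their groups.

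SLC30A10 encodes a manganese exporter of the plasma membrane. It read 5.13, 5.26, 5.23, 4.91 and 4.91 in the wild-type and 4.91, 4.62, 4.79, 4.80 and 4.87 in the SOD1(G93A) arrays. The SOD1(G93A) values lay below the wild-type ones except that of sample 3, which met wild-type samples 14 and 17 at 4.91. The difference was −0.29 (SE 0.09, 95% interval −0.49 to −0.09; adjusted p by limma 0.0834), short of the threshold under every alternative tried, with adjusted p from 0.0524 to 0.180.

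SLC30A9, a mitochondrial zinc exporter, read 8.55, 8.25, 8.65, 8.56 and 8.47 and 8.49, 8.33, 8.56, 8.72 and 9.08. Its groups overlapped (difference 0.14, SE 0.13; adjusted p by limma 0.668), and the difference was 0.03 without SOD1(G93A) sample 18, 0.22 without SOD1(G93A) sample 9 and 0.08 without wild-type sample 8. SLC30A1, the plasma membrane exporter that MTF1 controls, differed by 0.09 (SE 0.14, 95% interval −0.22 to 0.39; adjusted p by limma 0.835). Its values ran from 7.46 to 8.10 in the wild-type and from 7.47 to 8.03 in the SOD1(G93A) arrays, nearly the same range. SLC30A2 (−0.19), SLC30A4 (0.12), both vesicular exporters, and SLC30A7 (−0.09), a Golgi exporter, were not called. SLC30A8, the exporter of insulin granules, was dim and differed by 0.00 (SE 0.10).

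**Figure D2:**
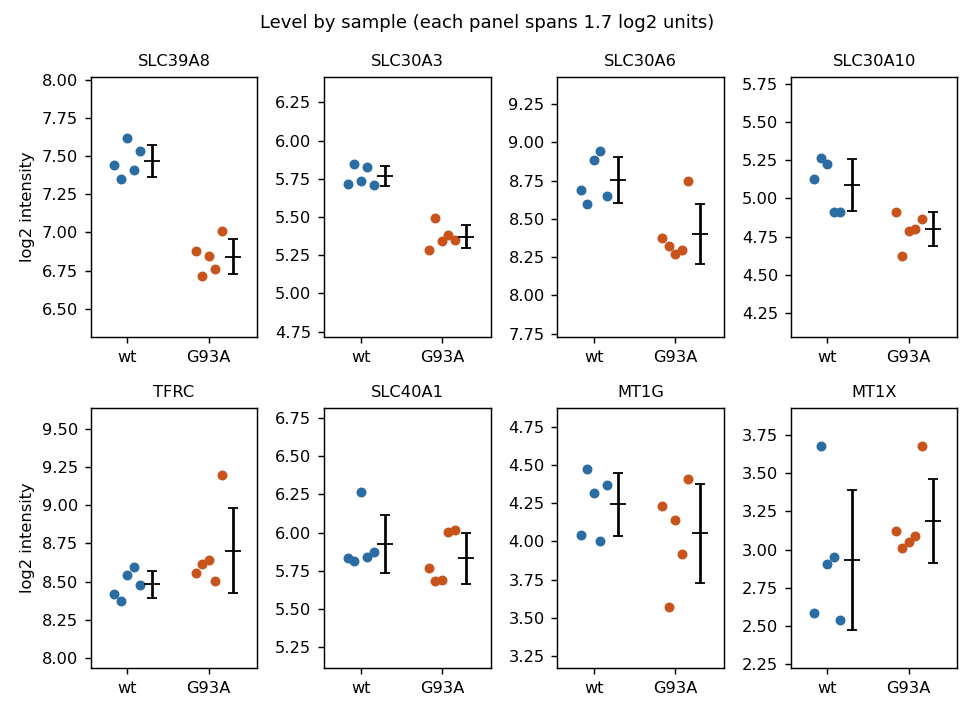
Log2 intensity by array (y axis) in the wild-type SOD1 (wt, blue) and SOD1(G93A) (G93A, orange) lines, 5 arrays each in the order of their sample numbers, with the mean and SD in black. The groups separate in SLC39A8 and SLC30A3, while in SLC30A6, TFRC and MT1X the highest SOD1(G93A) array, sample 18, stands at 8.75, 9.20 and 3.68.

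SLC30A3 and SLC30A6 share a place in the genome. Both lie on the short arm of chromosome 2, in a stretch of genes from SH3YL1 to ACYP2 that was lower in the SOD1(G93A) line in earlier results of these data. Because the stretch was chosen for low values in these same arrays, its counts and median follow in part from that choice. The same holds for the comparison with the genes after it. In RefSeq gene order this stretch held 201 named and measured genes, of which 101 were called lower (50.2%) and 2 higher, with a median difference of −0.37 and middle values (quartiles) from −0.52 to −0.15. The differences of SLC30A3 (−0.40) and SLC30A6 (−0.35) ranked 91 and 109 from the lowest among these 201. At the ACYP2 end of the stretch the values were near or above 0: PPP1R21 0.25, LHCGR 0.01, FSHR 0.08, CHAC2 −0.08, ERLEC1 0.29, PSME4 0.06 and ACYP2 −0.01. ACYP2 is therefore not where the low values ended. The 60 named genes that follow ACYP2 had a median of 0.03, with 4 called lower and 3 higher. Of the 28 members outside the stretch, 1 was called (3.57%). The share of all named genes called, 9.60%, includes the genes of the stretch, so the 2 shares are not on the same basis. At an unadjusted p under 0.05 by limma, 3 of these 28 were lower and 0 higher, where 11.6% of all named genes, the stretch included, were lower and 10.1% higher. The part of the neighbouring genes in the 2 members' differences was not tested.

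**Figure D3:**
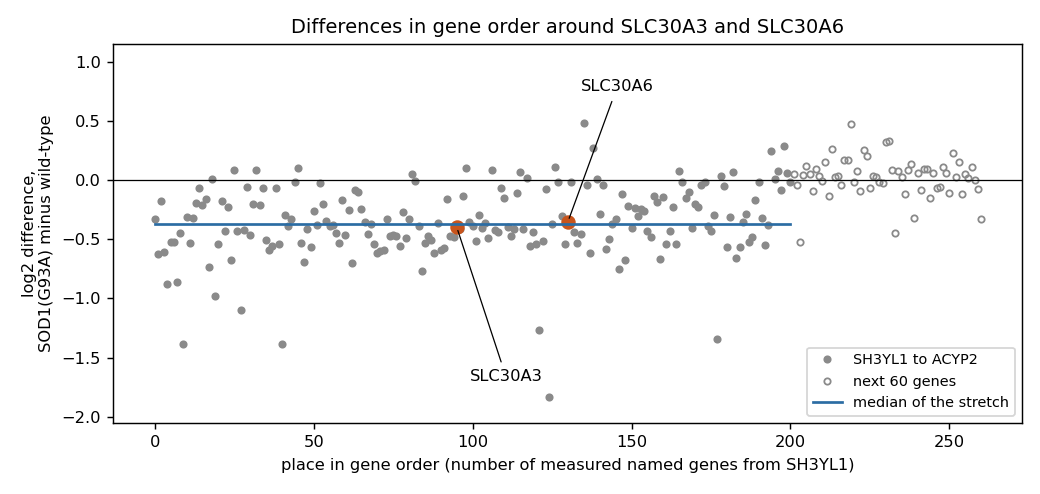
Log2 difference between the lines (y axis) for the 201 named genes from SH3YL1 to ACYP2 (filled) and the next 60 (open), by their place in gene order (x axis, number of measured genes from SH3YL1). SLC30A3 and SLC30A6, in orange, lie near the median of the stretch, −0.37, drawn in blue.

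The metallothioneins were not called. MT3, the form known from brain, read 4.80, 4.62, 4.64, 4.73 and 4.74 in the wild-type and 4.73, 4.54, 4.80, 4.68 and 4.65 in the SOD1(G93A) arrays. The groups overlapped and their means differed by −0.02 (SE 0.06, 95% interval −0.16 to 0.12; adjusted p by limma 0.909). MT1G read 4.05, 4.47, 4.32, 4.01 and 4.37 and 4.23, 3.57, 4.14, 3.92 and 4.41, with SOD1(G93A) sample 9 the lowest (difference −0.19, SE 0.15, 95% interval −0.53 to 0.15; adjusted p by limma 0.604). Without that array the MT1G difference was −0.07. MT1X, which was dim, read 2.59, 3.68, 2.91, 2.95 and 2.54 and 3.12, 3.01, 3.05, 3.09 and 3.68. It stood highest in 1 array of each line, wild-type sample 8 and SOD1(G93A) sample 18, and the difference was 0.26 (SE 0.21, 95% interval −0.21 to 0.72; adjusted p by limma 0.603). The difference was 0.44 without wild-type sample 8 (adjusted p by limma 0.144), 0.14 without SOD1(G93A) sample 18 and 0.04 without samples 17 and 18 together. It was 0.17 without wild-type sample 2 and 0.16 without wild-type sample 17, and it was not called in any of these settings. MT1X and MT1G had the largest spread between arrays of all 30 members, with pooled SDs of 0.38 and 0.27 log2 units against 0.06 for CP at the other end. Their sequences are close to those of other metallothionein genes, and which probes are shared was not examined.

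A further 6 probe sets were annotated to several metallothionein genes or pseudogenes of the MT1 group at once, so no gene can be named from them. Their means over all 10 arrays ran from 2.05 to 6.32 and their differences from −0.32 to 0.07, and none was past the threshold (adjusted p by limma from 0.0892 upward). The lowest of these adjusted p-values belonged to a dim probe set with a difference of −0.30. The difference of −0.32 belonged to a dim probe set annotated to MT1X and MT1IP (SE 0.52; adjusted p by limma 0.833). Its sign was opposite to that of the MT1X probe set above (0.26). The other 4 probe sets with several symbols that touched the rule, 3 with a ZIP gene and 1 with TF, were not called either (differences −0.11 to 0.16).

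Iron uptake genes were not called. TFRC, the transferrin receptor, read 8.42, 8.37, 8.54, 8.59 and 8.48 in the wild-type and 8.56, 8.62, 8.64, 8.51 and 9.20 in the SOD1(G93A) arrays. SOD1(G93A) sample 18 stood apart at 9.20, and the other 4 arrays of its group lay within or just above the wild-type range. The difference was 0.22 (SE 0.12, 95% interval −0.05 to 0.49; adjusted p by limma 0.382), and without sample 18 it was 0.10. SLC11A2, which carries ferrous iron out of the endosome, read 7.30, 7.31, 7.27, 7.33 and 7.23 and 7.22, 7.35, 7.11, 7.24 and 7.43. The SOD1(G93A) arrays surrounded the wild-type ones, and the difference was −0.02 (SE 0.07; adjusted p by limma 0.944). TF was dim, at 2.18, 2.02, 2.15, 2.03 and 2.11 and 1.96, 2.12, 1.94, 1.56 and 1.91, with SOD1(G93A) sample 15 the lowest (difference −0.20, SE 0.09; adjusted p by limma 0.289), and without that array the difference was −0.12.

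Iron export and iron sensing genes did not pass the threshold either. SLC40A1, ferroportin, read 5.83, 5.81, 6.26, 5.84 and 5.88 and 5.77, 5.68, 5.69, 6.001 and 6.01. Wild-type sample 11 stood above the other 9 arrays, and the difference was −0.09 (SE 0.11, 95% interval −0.33 to 0.14; adjusted p by limma 0.734). Without wild-type sample 11 it was −0.0096, and without SOD1(G93A) sample 9 or 12 it was −0.06. HEPH, a membrane ferroxidase, was dim at 2.84, 2.93, 3.01, 2.75 and 2.98 and 2.82, 2.85, 2.79, 2.78 and 2.80, and CP, its plasma relative, was dim at 2.32 to 2.40 and 2.23 to 2.42. ACO1, which encodes iron regulatory protein IRP1, read 7.69, 7.70, 7.78, 7.70 and 7.82 and 7.72, 7.80, 7.77, 7.68 and 7.93. The ACO1 groups overlapped, with a difference of 0.04 (SE 0.06, 95% interval −0.09 to 0.18; adjusted p by limma 0.794), among the narrower intervals of the members.

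Other genes of iron handling were taken from a list of 46, of which 37 were measured. By limma 2 were called higher and 2 lower, 10.8% of the list against 9.60% of all named genes, and the list's median difference was −0.02. FTL, the ferritin light chain that stores iron, read 5.85, 6.002, 5.95, 5.68 and 6.07 in the wild-type and 6.23, 6.34, 6.17, 6.71 and 6.19 in the SOD1(G93A) arrays (difference 0.42, SE 0.11; adjusted p by limma 0.0472). TFR2, the second transferrin receptor, read 6.63, 6.57, 6.61, 6.49 and 6.53 and 6.88, 6.72, 6.76, 6.70 and 6.80 (difference 0.21, SE 0.05; adjusted p by limma 0.0429). In both genes every SOD1(G93A) array was above every wild-type array. Lower were LRP1, an endocytic receptor that also clears heme bound to hemopexin, by 0.26 (SE 0.06; adjusted p by limma 0.0323), and NEO1, neogenin, a receptor of the hepcidin pathway, by 0.25 (SE 0.06; adjusted p by limma 0.0403). Their wild-type values ran from 7.68 to 7.95 and from 8.11 to 8.24, and their SOD1(G93A) values from 7.45 to 7.63 and from 7.78 to 8.05. All 4 calls were near the threshold. That of TFR2 was lost without any 1 of the 10 arrays, that of FTL without any but SOD1(G93A) sample 12, and those of LRP1 and NEO1 without 7 of the 10, and none of the list was called without wild-type sample 8, wild-type sample 14 or SOD1(G93A) sample 9. The TFR2 call was also lost with array medians subtracted and with quantile normalization repeated, and 3 genes of the list were called in each of these settings. FTL has many near-identical pseudogene copies, and its value is uncertain for that reason.

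Other zinc and copper genes, 17 measured of 27 listed, had 1 called higher and 1 lower (11.8% of the list against 9.60% of all named genes), with a list median of −0.02. Among probe sets above the median, 12 genes of the list were tested and 3 were called, 2 of them higher. ATP7A encodes the pump that moves copper into the secretory pathway and out of the cell. It read 6.65, 6.31, 6.32, 6.59 and 6.61 in the wild-type and 7.42, 7.66, 7.81, 8.03 and 8.23 in the SOD1(G93A) arrays, with no overlap, and its level was 253% of the wild-type one (difference 1.34, 95% interval 1.02 to 1.66; adjusted p by limma 0.000181). ATP7B, the related pump of liver, read 6.07, 6.30, 6.37, 6.31 and 6.25 and 6.40, 6.48, 6.47, 6.53 and 6.50, also with no overlap, and it was not called (unadjusted p by limma 0.00585, difference 0.22, SE 0.06; adjusted p by limma 0.0691). PRNP, the copper-binding prion protein gene, was lower, from 8.04, 7.84, 7.70, 7.50 and 8.15 to 5.28, 5.51, 4.64, 5.09 and 4.88 (difference −2.76, SE 0.17; adjusted p by limma 2.21e-06). SOD1 read 9.88, 9.81, 9.66, 9.62 and 9.92 and 9.64, 9.59, 9.42, 9.60 and 9.51. The difference was −0.23 (95% interval −0.39 to −0.06; unadjusted p by limma 0.0112), and it was not called (adjusted p by limma 0.107). The transfected and the endogenous gene may both feed that probe set, so it does not check the labels. The copper importers SLC31A1 and SLC31A2 differed by −0.11 (SE 0.07) and 0.08 (SE 0.06) and the chaperones ATOX1 and CCS by −0.03 (SE 0.10) and −0.02 (SE 0.06), none of the 4 past the threshold.

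**Figure D4:**
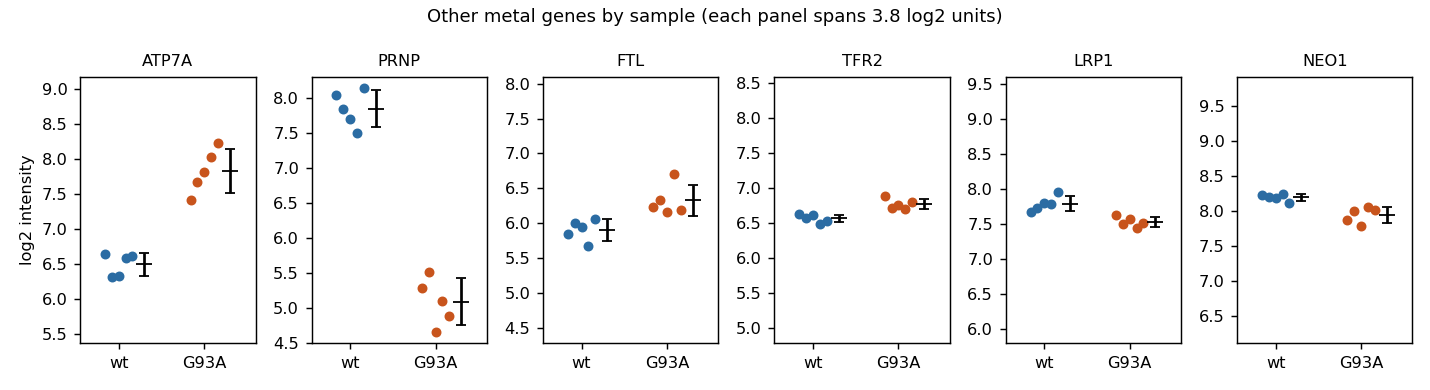
Log2 intensity by array (y axis, the same span in every panel) of the 6 called genes of the lists of other iron, zinc and copper genes, in the wild-type SOD1 (wt, blue) and SOD1(G93A) (G93A, orange) lines, 5 arrays each, with mean and SD in black. The ATP7A groups are 1.34 apart and the PRNP groups 2.76, while FTL, TFR2, LRP1 and NEO1 are 0.21 to 0.42 apart.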

How the data were processed

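The table deposited by the authors holds log2 intensities, summarised per gene, for 22011 probe sets on 10 arrays. The authors used RMA per the submitters' processing notes, and oneChannelGUI 1.6.5 per the labels. RMA aligns the distributions of the arrays, so a shift of all genes would not show, and the table carries no detection calls. For genome build and filters, the labels and headers state nothing. Precision is limited by having 5 arrays a group.

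Probe sets with exactly 1 symbol (14432) were named through the platform annotation, 2408 had several symbols and 5171 none. All 30 members matched the RefSeq table of assembly GCF_000001405.40 by gene identifier. That table also gave gene order. Promoter sequences are from RefSeq, GRCh38.p14.

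The fit was limma 3.58.1 in R 4.3.3 (lmFit, eBayes, 2-sided) on the values as deposited, adjusted over all probe sets, and it was tested on simulated data. Differences are SOD1(G93A) minus wild-type. The threshold of 0.05 and the added 2-fold threshold are those of the labels.

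Members and lists were chosen with earlier results of these data known. The genes given by sample were those called, the 2 with the highest mean per role, the 6 largest differences not called, and the called genes of the 2 lists. The counts over neighbouring genes, and ATP7B, SOD1, the copper importers and chaperones, were added after values were seen. Alternatives were single-array omissions, samples 17 and 18 left out, 2 normalizations, 2 variance priors, array weights, a filter on dim probe sets and the 2-fold threshold. Replicate numbers are not shared between groups.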

Additional observations from a re-analysis of the deposited data

Results flagged for a closer look

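Sample values were compared within each group of 5 by the gap of the highest or lowest array to its nearest neighbour, divided by the range of the group, against the 95% critical value of 0.71. Among the 30 members, SOD1 and the called genes of both lists, 74 groups were compared, and 7 held an array past that value, where chance gives about 1 in 20. All 7 were the highest of their group. SOD1(G93A) sample 18 stood apart in TFRC (9.20, next 8.64), SLC30A6 (8.75, next 8.38), SLC30A5 (8.26, next 7.93) and MT1X (3.68, next 3.12). Wild-type sample 11 stood apart in SLC39A6 (9.79, next 9.58), SLC30A5 (8.16, next 7.89) and SLC40A1 (6.26, next 5.88).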

How the results depend on the processing

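The calls of SLC39A8 and SLC30A3 stood under every alternative that kept them in the test at the threshold of 0.05. SLC30A3 is below the median probe set and was not tested among the brighter ones. Leaving out 1 array in turn gave 2 to 3 called members and 1274 to 1562 probe sets called over the whole array. The same omissions gave 0 to 2 other iron genes and, each time, 2 other zinc and copper genes. In the separate setting of probe sets above the median, 3 other zinc and copper genes were called. Without samples 17 and 18 together 0 other iron genes were called. With the 2-fold threshold added, 0 members, 0 other iron genes and 192 probe sets over the whole array were called, of 2, 4 and 1643. The third member called in some settings was SLC30A6: without SOD1(G93A) sample 18, without samples 17 and 18, with array medians subtracted, with array weights, and among probe sets above the median. Of 37 gene differences compared, 28 kept their sign in all alternatives, and the others were differences of uncalled members near 0. Without samples 17 and 18 the sign turned for CP (0.0143), SLC30A5 (−0.0151) and SLC39A4 (0.0145), and with array medians subtracted for SLC30A8 (−0.0042). With 1 array left out it turned for 9 members, and these ranges were −0.0315 to 0.0162 for CP, −0.0535 to 0.0127 for MT3, −0.0565 to 0.0241 for SLC11A2, −0.00951 to 0.122 for SLC30A5, −0.0702 to 0.0605 for SLC30A8, −0.0709 to 0.0533 for SLC39A1, −0.0611 to 0.000107 for SLC39A4, −0.0172 to 0.0453 for SLC39A5 and −0.0864 to 0.0206 for SLC39A6. The cause was not tested. Subtracting array medians or repeating quantile normalization moved the median of all probe sets by less than 0.1. Averaging several probe sets of a gene was not run, since each member had 1. No paired analysis was run, because the labels state no pairing and the groups share no replicate number. Sample numbers of the 2 groups are adjacent, such as 17 and 18, and whether adjacent samples were handled together is not labelled. Dim probe sets limit what can be seen for 6 members.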

Other observations

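SLC30A1 was not called, and some of its neighbours were. Of the 10 named genes nearest to it in gene order, 4 were called lower and 9 had values below 0, with a median difference of −0.15, while SLC30A1 differed by 0.09 (95% interval −0.22 to 0.39). For SLC30A3 and SLC30A6 the same count gave 6 and 5 called lower, and for each of the other 27 members at most 2.

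SOD1(G93A) sample 18 was the highest of its 5 arrays in 15 of the 30 members, and SOD1(G93A) sample 9 the lowest in 12. Among all named genes these shares were 29.1% and 29.8%. Wild-type sample 11 was the highest of its group in 10 members and the lowest in 0, where 26.2% and 14.4% of all named genes were.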
